A study of Mus musculus with 17 samples.

Results

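Dusp1, Dusp4, Dusp5, Dusp6, Dusp13, Spry1, Spry2, Spry4, Spred1 and Spred2 encode dual-specificity phosphatases and Sprouty-family inhibitors, most of them known as feedback inhibitors of ERK signalling. They were taken by symbol from a table of gene counts with 15062 genes, and all 10 were present. The RNA came from C2C12, mouse muscle precursor cells that grow as a line, kept in medium with 10% fetal bovine serum. One line is labelled pMSCV, the name of a retroviral vector, and is taken here as the vector control; another expressed SRF. The other lines expressed a fusion: SRF-RELA, SRF-ICA1L or SRF-FOXO1, with 3 libraries each as in the first lines, or SRF-PDGFRB, with 2. Serum response factor (SRF) drives transcription from DNA; the fusions join it to FOXO1 (a forkhead transcription factor), RELA (an NF-kappaB subunit), PDGFRB (a growth factor receptor) or ICA1L, and come from a study of soft tissue tumours with muscle-like features. All lines keep the C2C12 genome with its own Srf gene. The vector and promoter that drive SRF and the fusions, the species of the introduced sequences, and whether a line is 1 clone or a pool are not given in the sources used here. The labels do not say that the replicates came from separate cultures, so p-values measure the spread between these libraries, which may be technical.

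ERK is the last kinase of the RAS-RAF-MEK-ERK cascade, which growth factors in serum activate through receptor tyrosine kinases. ERK activity raises transcription of its own inhibitors: phosphatases that remove the activating phosphates from MAP kinases, and Sprouty and Spred proteins that act higher up, between receptor, RAS and RAF. For this reason the RNA of several of them, Dusp6 and Spry2 among them, is often read as a measure of ERK output; Dusp13 is better known for its muscle and testis forms. In myoblasts, mitogens that signal through this cascade favour proliferation over fusion into muscle fibres, and SRF itself binds CArG boxes at immediate-early genes that ERK induces.

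The promoter sequences of 4 members are shown because the results below turn on Dusp13, Spry2 and Dusp5, and on the difference between these and Dusp1. Each is the 250 bases before the RefSeq start site, 5′ to 3′ on the gene's strand (RefSeq, GRCm38.p6), with capitals where a CArG box, an ETS core (CCGGAAGT), a CRE (TGACGTCA), an AP-1 site (TGANTCA), an NF-kappaB site or a FOXO core (GTAAACA) matched on either strand. Dusp5 lies at chr19:53528895-53529144 on the plus strand, Dusp1 at chr17:26508473-26508722 on the minus strand, Dusp13 at chr14:21748623-21748872 on the minus strand (the first of 4 starts in RefSeq), and Spry2 at chr14:105896820-105897069 on the minus strand.
Dusp5: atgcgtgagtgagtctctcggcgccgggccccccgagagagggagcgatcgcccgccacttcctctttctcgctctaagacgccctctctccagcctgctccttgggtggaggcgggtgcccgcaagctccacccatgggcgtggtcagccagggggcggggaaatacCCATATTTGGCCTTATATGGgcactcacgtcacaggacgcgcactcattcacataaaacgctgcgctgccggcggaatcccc
Dusp1: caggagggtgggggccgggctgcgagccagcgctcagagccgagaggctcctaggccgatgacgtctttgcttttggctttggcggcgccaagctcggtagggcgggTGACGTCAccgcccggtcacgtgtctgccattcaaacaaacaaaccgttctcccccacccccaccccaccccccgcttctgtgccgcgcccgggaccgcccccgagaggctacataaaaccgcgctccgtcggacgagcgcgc
Dusp13: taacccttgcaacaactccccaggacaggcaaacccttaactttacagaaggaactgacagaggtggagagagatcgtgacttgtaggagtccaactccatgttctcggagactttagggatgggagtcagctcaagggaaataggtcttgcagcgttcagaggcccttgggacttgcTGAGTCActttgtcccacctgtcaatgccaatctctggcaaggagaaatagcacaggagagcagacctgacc
Spry2: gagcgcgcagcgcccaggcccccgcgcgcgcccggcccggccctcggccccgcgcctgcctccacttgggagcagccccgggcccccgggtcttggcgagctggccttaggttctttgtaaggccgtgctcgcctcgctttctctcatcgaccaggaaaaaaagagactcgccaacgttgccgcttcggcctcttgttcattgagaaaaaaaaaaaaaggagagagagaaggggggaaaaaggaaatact

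RefSeq promoters were matched for 8 of the 10 members, all but Dusp4 and Spry4. Dusp5 held 2 CArG boxes side by side, CCATATTTGG at 82 to 73 bases and CCTTATATGG at 72 to 63 bases before the start; a CArG box was in 1.47% of the 32851 mouse promoter windows of this length. Dusp1 held a CRE at 143 to 136 bases before its start (1.55% of all windows), and the first Dusp13 promoter held an AP-1 site at 72 to 66 bases (6.75% of all windows). That share is per window, and 4 windows were searched for Dusp13. Counts per gene do not show which of its starts these cells used. No other member's window, and no other Dusp13 start, held any of the 6 motifs marked by capitals, so the Spry2 sequence has none. ETS cores were in 2.88%, NF-kappaB sites in 3.90% and FOXO cores in 3.17% of all windows. The E-box (CANNTG), which myogenic factors bind, was left in lower case because 66.2% of all windows held it; it was found in Dusp1, Dusp6, Spry1, Spry2 and all 4 Dusp13 windows. None of these motifs overlapped another in the sequences shown. A match describes letters in this window and says nothing of whether a factor binds there, and a missing match nothing of the factor.

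Depth was even, with 20901442 to 23543734 counts per library, and mitochondrial genes took 3.43% to 5.28% of them. Srf stood at 81.3 ± 13.7 CPM (library-scaled counts; SD, n = 3) in pMSCV and 1128 ± 504 (SD, n = 3) in the SRF line, but between 70.5 and 279 in the libraries of the fusion lines. Whether reads from the constructs entered the count of the mouse gene could not be read from the table. The myoblast markers Myod1, Myf5, Pax7, Des, Cdh15 and Chrna1 were all in the table, and the endothelial and epithelial markers Pecam1, Kdr, Tie1, Epcam, Krt18 and Cdh1 were not. Of those 2 lists Cdh5 was present at up to 2.72 CPM and Krt8 at up to 0.553 CPM, each at 0 in at least 1 library. Same-numbered libraries varied together in pMSCV, SRF-RELA, SRF-ICA1L and SRF, so their comparisons are given from a fit over all 17 libraries and also from a fit over these 12 with replicate number as a block. Called, here, means an adjusted p under 0.05.

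Relative to their length, Dusp4 had the highest mean in pMSCV and Dusp13 the lowest, each overlapping its neighbours. In pMSCV, mean CPM per kilobase of exon was 81.2 ± 35.0 for Dusp4, 59.1 ± 33.9 for Dusp1, 47.2 ± 23.5 for Spry2, 38.2 ± 11.5 for Dusp6 and 36.0 ± 2.24 for Dusp5 (SD, n = 3), and the libraries of these 5 genes overlapped with each neighbour in that order. Spred2 at 20.8 ± 6.50 and Spred1 at 11.4 ± 0.975 (SD, n = 3) came next, each below every library of the gene before it. Spry4 at 4.53 ± 1.26, Spry1 at 4.08 ± 2.48 and Dusp13 at 3.76 ± 1.43 (SD, n = 3) formed the lowest and overlapping set. In SRF-FOXO1 Dusp13 dropped out of that set to 0.332 ± 0.129 CPM per kilobase (SD, n = 3), against 3.63 ± 2.21 for Spry1 and 2.75 ± 2.11 for Spry4.

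**Figure D1:**
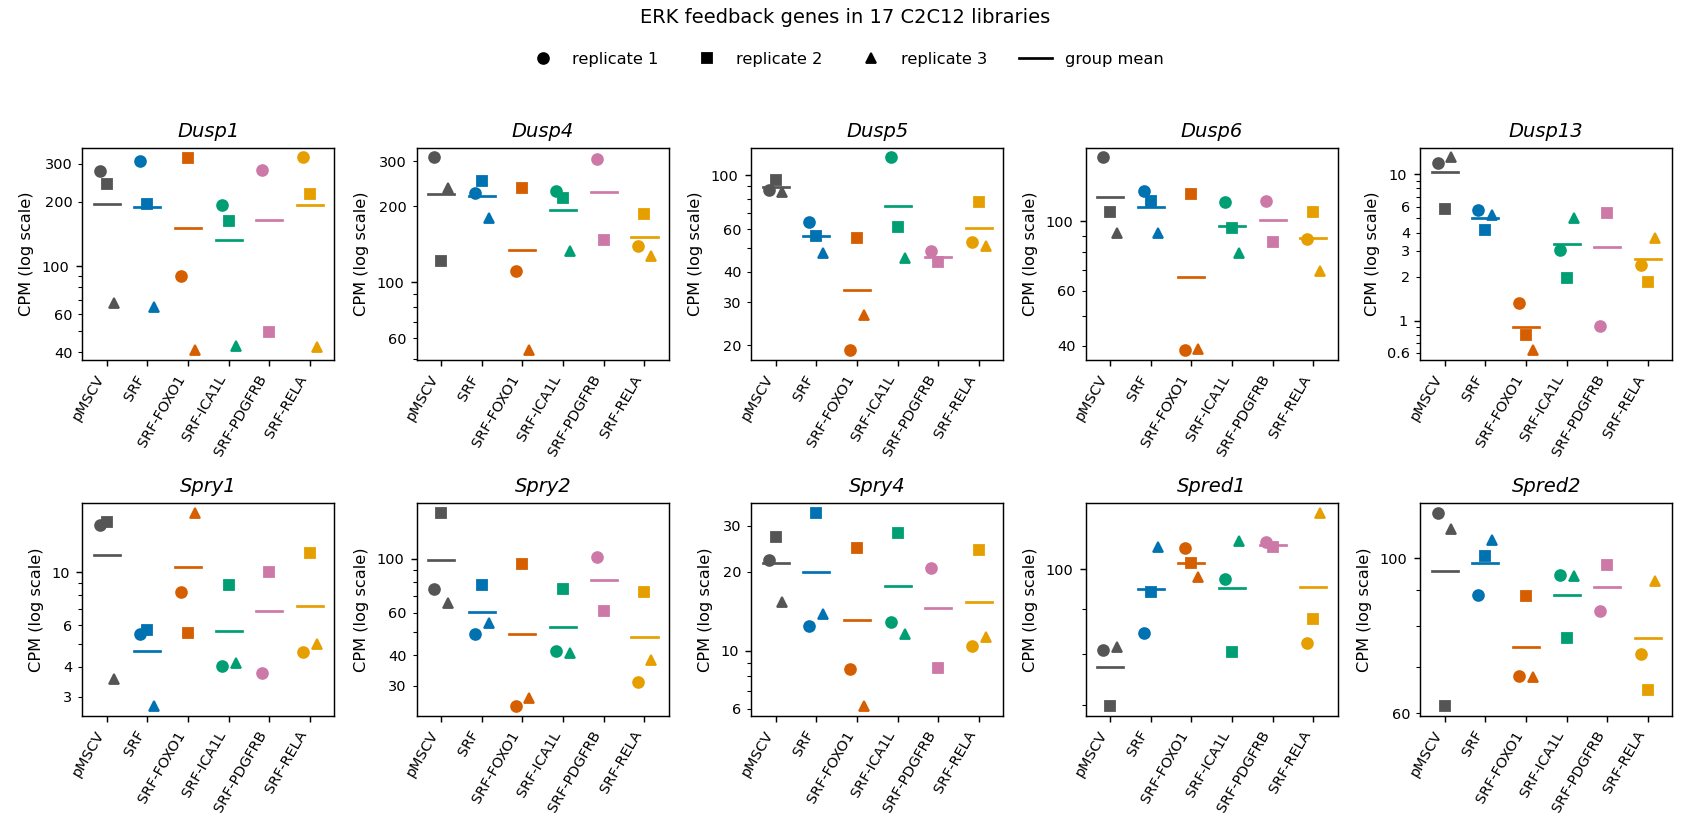
Expression of the 10 genes in each of the 17 libraries, in CPM on a log scale, by line; the symbol gives the replicate number and the bar the group mean. Dusp13 lies below every pMSCV library in all other lines, Dusp1 lies lowest in replicate 3 of each line with 3 libraries, and Spry2 and Spry4 lie highest in replicate 2 of each such line.

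Against pMSCV, Dusp13 alone among the 10 genes was called in the fit over 17 libraries, and only in SRF-FOXO1. Adding the replicate block called Dusp13 and Spry2 lower in SRF-ICA1L and in SRF-RELA. No member was called higher in either fit. The share of all genes called was small, so these counts are given with it: in SRF-FOXO1 against pMSCV 1 member of 10 was called, where 0.71% of all 15062 genes were (54 higher, 53 lower). The share was 0.00664% in SRF, 0.0199% in SRF-PDGFRB and 0% in both SRF-ICA1L and SRF-RELA, with 0 of 10 members called in each of these 4 by edgeR's quasi-likelihood test. DESeq2, which called more genes, called 2 members in SRF-FOXO1 (Dusp5 and Dusp13) with 9.07% of all genes that had an adjusted p, and 1 in SRF-RELA (Dusp13) with 0.77%. It called 0 members in SRF-PDGFRB (0.475% of all genes), SRF-ICA1L (0.318%) and SRF (0.0266%). At an unadjusted p under 0.05 the members numbered 4 in SRF-FOXO1 (20.9% of all genes), 3 in SRF-PDGFRB (7.70%), 1 in SRF-RELA (8.05%), 1 in SRF-ICA1L (6.23%) and 0 in SRF (3.34%). With the replicate block in 12 libraries, 2 of 10 members were called in SRF-ICA1L, where 2.81% of all genes were (182 higher, 241 lower), 2 of 10 in SRF-RELA, where 6.07% were (430 higher, 484 lower), and 0 of 10 in SRF, where 0.0133% were. At an unadjusted p under 0.05 that fit had 5 members in SRF (14.8% of all genes), 5 in SRF-ICA1L (18.7%) and 6 in SRF-RELA (22.1%).

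Most log2 fold changes of the members against pMSCV were below 0, whether called or not. They were negative for 9 of 10 genes in SRF-FOXO1 (median -0.73), SRF-RELA (-0.52) and SRF-ICA1L (-0.30), and for 8 of 10 in SRF-PDGFRB (-0.26) and SRF (-0.11). Over all genes the median stayed between -0.02 and 0.01 in these 5 comparisons. The 5 share the pMSCV libraries, so their signs are not independent of one another. Groups without overlap were few. Dusp13 lay below every pMSCV library in all 5 lines and Dusp5 in all but SRF-ICA1L, which made 2 of 10 members in 4 lines and 1 of 10 in SRF-ICA1L. Spred1 lay above every pMSCV library in all lines but SRF-ICA1L. Among all genes, 11.6% lay below and 11.4% above every pMSCV library in SRF-FOXO1. In SRF-PDGFRB it was 7.23% and 8.67%, in SRF-RELA 5.91% and 5.19%, in SRF-ICA1L 5.54% and 4.67%, and in SRF 5.15% and 4.02%.

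**Figure D2:**
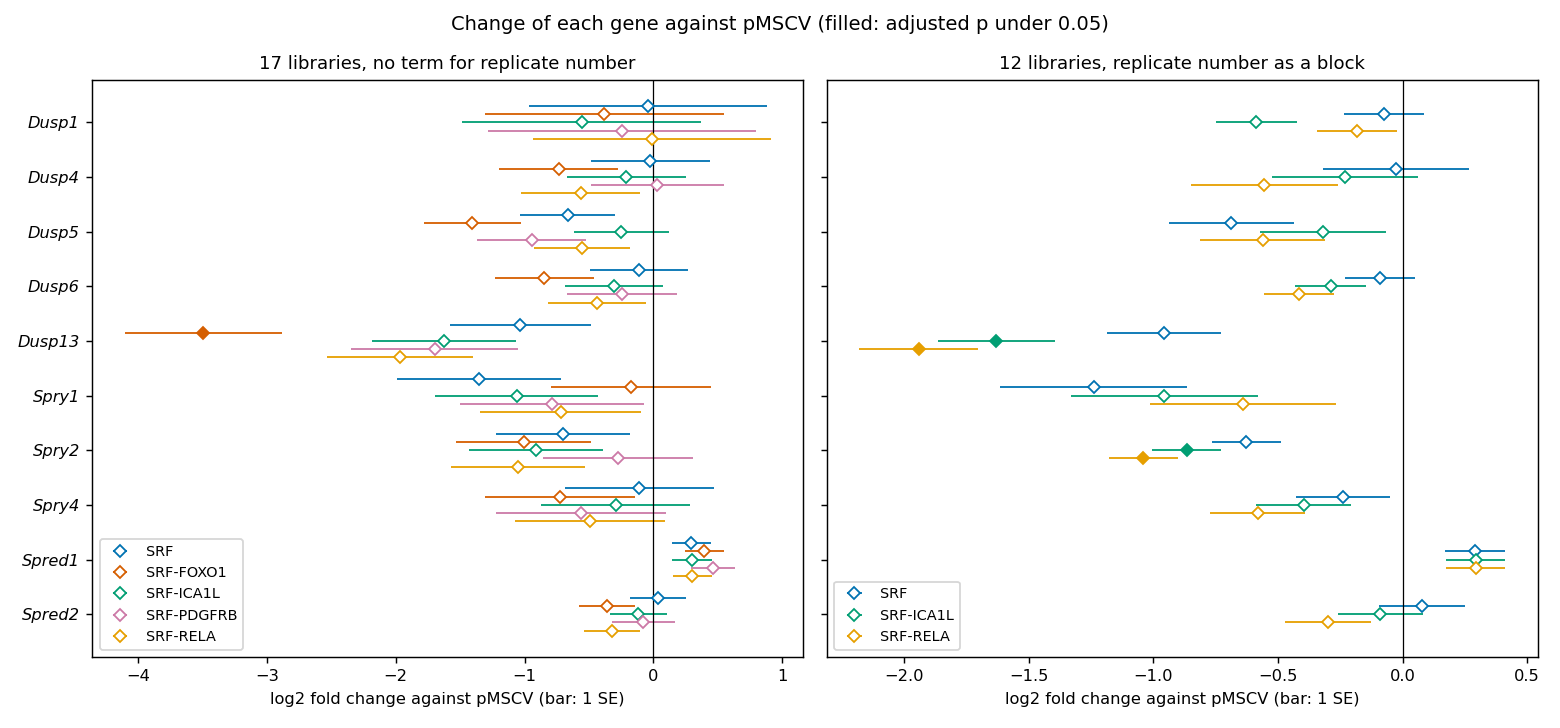
Log2 fold change of each gene against pMSCV (x axis, log2 scale; bars 1 SE) in the fit over 17 libraries (left) and with the replicate block in 12 libraries (right); filled symbols passed an adjusted p of 0.05. Dusp13 in SRF-FOXO1 is the only filled symbol on the left, and Dusp13 and Spry2 in SRF-ICA1L and SRF-RELA are the filled symbols on the right.

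Dusp13 (ENSMUSG00000021768, chr14:21733394-21751181, minus strand, GRCm38, GENCODE M21) encodes an atypical dual-specificity phosphatase with a form found in skeletal muscle and one found in testis. Its CPM in replicates 1, 2 and 3 was 12.04, 5.82 and 13.1 in pMSCV. The corresponding values were 5.72, 4.16 and 5.23 in SRF. SRF-FOXO1 had 1.31, 0.797 and 0.624, from 30, 17 and 14 counts. Every SRF-FOXO1 library was therefore below every pMSCV and every SRF library. Such separation from SRF was common: 18.3% of all genes lay below every SRF library and 17.1% above. Of the 10 members, 2 lay below and 0 above. SRF-ICA1L had 3.03, 1.96 and 5.04 CPM and SRF-RELA had 2.40, 1.83 and 3.68. The 2 SRF-PDGFRB libraries stood far apart at 0.918 and 5.43. All libraries of the 5 other lines were below the lowest pMSCV library, although by little in SRF, whose highest value was 5.72 against 5.82.

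In SRF-FOXO1 Dusp13 was 11.3-fold lower than in pMSCV (fold 0.0888, 95% interval 0.0388 to 0.203; log2 fold change -3.49, SE 0.61, edgeR adjusted p = 0.0336). This call rested on single libraries: the adjusted p was 0.114 without pMSCV replicate 1, 0.0784 without pMSCV replicate 3, 0.0785 without SRF-FOXO1 replicate 1 and 0.151 without SRF-FOXO1 replicate 3, with log2 fold changes between -3.85 and -3.28. In SRF-ICA1L the log2 fold change was -1.63 (SE 0.23, adjusted p = 0.00960) with the block and -1.62 (adjusted p = 0.670) without it. The value for SRF-RELA was -1.94 (SE 0.24, adjusted p = 0.00295) with the block and -1.97 (adjusted p = 0.413) without. In all 3 same-numbered pairs Dusp13 was lower than in pMSCV, with log2 CPM differences of -1.96, -1.52 and -1.36 in SRF-ICA1L and -2.28, -1.62 and -1.80 in SRF-RELA. Leaving out replicate number 1 from the block fit ended both calls, with log2 fold changes of -1.45 in SRF-ICA1L (adjusted p = 0.224) and -1.75 in SRF-RELA (adjusted p = 0.118). That fit called 0 and 1 of all 15062 genes in those comparisons, so the block's calls of other genes given below also end without number 1 in SRF-ICA1L, and all but at most 1 of them in SRF-RELA. Neither SRF (-0.96 with the block, SE 0.23, adjusted p = 0.167) nor SRF-PDGFRB (-1.70, SE 0.65, adjusted p = 0.569) passed the test. Without SRF-PDGFRB replicate 2 the latter value was -3.48 (adjusted p = 0.0610), and without replicate 1 it was -0.94.

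Against SRF, Dusp13 was 5.61-fold lower in SRF-FOXO1 when replicate number entered as a block in those 6 libraries (log2 fold change -2.49, SE 0.35, adjusted p = 0.0446), where 1.61% of all genes were called and 1 of 10 members was. Without the block the value was -2.46 (SE 0.59, adjusted p = 0.175), and 0.00664% of all genes and 0 of 10 members were called. The replicate numbers of SRF-FOXO1 went with those of SRF but not with those of pMSCV, so this pairing is uncertain. Against the other fusions the log2 fold changes of Dusp13 in SRF-FOXO1 were -1.87 (SE 0.58, SRF-ICA1L), -1.80 (SE 0.63, SRF-PDGFRB) and -1.53 (SE 0.58, SRF-RELA), with adjusted p of 0.750, 0.999 and 0.965. In order of mean CPM the lines were pMSCV at 10.3 ± 3.93, SRF at 5.04 ± 0.800, SRF-ICA1L at 3.34 ± 1.56, SRF-PDGFRB at 3.17 ± 3.19 (n = 2), SRF-RELA at 2.64 ± 0.952 and SRF-FOXO1 at 0.910 ± 0.355 (SD, n = 3 unless given), and no pair of neighbours in this order differed in the fit over 17 libraries.

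Dusp13 went broadly with the myoblast markers across libraries, with exceptions among single libraries. Sums of CPM weigh abundant markers most. Among the 6 myoblast markers, medians over the 17 libraries ran from 2.10 CPM for Pax7 to 305 for Des. The summed CPM of these 6 markers was 1211 to 1668 in pMSCV, 607 to 1228 in SRF, 369 to 967 in SRF-ICA1L, 278 to 607 in SRF-RELA and 163 to 209.6 in SRF-FOXO1. SRF-PDGFRB replicate 1, with Dusp13 at 0.918 CPM, had 83.1, and replicate 2, with Dusp13 at 5.43, had 1859. The latter was the highest sum of all 17 libraries, although its Dusp13 lay below every pMSCV library. SRF replicate 3, with a sum of 1228, had Dusp13 at 5.23, while pMSCV replicate 1, with a sum of 1211, had 12.04. Of 15 markers of differentiated muscle 13 were in the table, with sums of 252 to 453 in pMSCV and 54.3 to 94.6 in SRF-FOXO1, and 13.9 and 934 in the 2 SRF-PDGFRB libraries. In SRF-RELA these sums were 96.7, 418 and 52.2, so that the library with the line's lowest Dusp13 (replicate 2, 1.83 CPM) had its highest sum and the library with its highest Dusp13 (replicate 3, 3.68 CPM) the lowest. None of these muscle markers was called in the fit over 17 libraries. With the block 4 of the 6 myoblast markers were lower in SRF-ICA1L, where 2.81% of all genes were called, and 5 in SRF-RELA, where 6.07% were. Of the 13 markers of differentiated muscle, 3 were lower in SRF-ICA1L and 4 in SRF-RELA in that fit. Markers of other cell types were also present. The 5 of 6 fibroblast markers in the table summed to 781 to 4683 CPM in pMSCV and 904 to 7191 in SRF-FOXO1, where all 5 had positive log2 fold changes (median 1.44) and none was called. Macrophage markers (3 of 5 in the table, without Ptprc and Adgre1) were low, at 3.83 to 7.19 in pMSCV and 10.1 to 12.6 in SRF-FOXO1 with no overlap, and none of them was called there. The 5 of 6 smooth muscle markers summed to 280 to 2467 in pMSCV and 1946 to 3024 in SRF-FOXO1. In these bulk libraries fewer cells of a type and less RNA per cell cannot be told apart. The part of these markers' cell states in the Dusp13 result was not tested. The antisense gene Gm15935 overlaps Dusp13 and ran at 0.994 ± 0.288 CPM in pMSCV and 0.131 ± 0.190 in SRF-FOXO1 (SD, n = 3). Samd8 also overlaps Dusp13 on the opposite strand and ran at 72.2 ± 6.11 and 51.6 ± 8.09 CPM (SD, n = 3) in those lines. The strand setting of the counting is not given in the sources used here, so reads of either gene cannot be told apart from those of Dusp13.

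**Figure D3:**
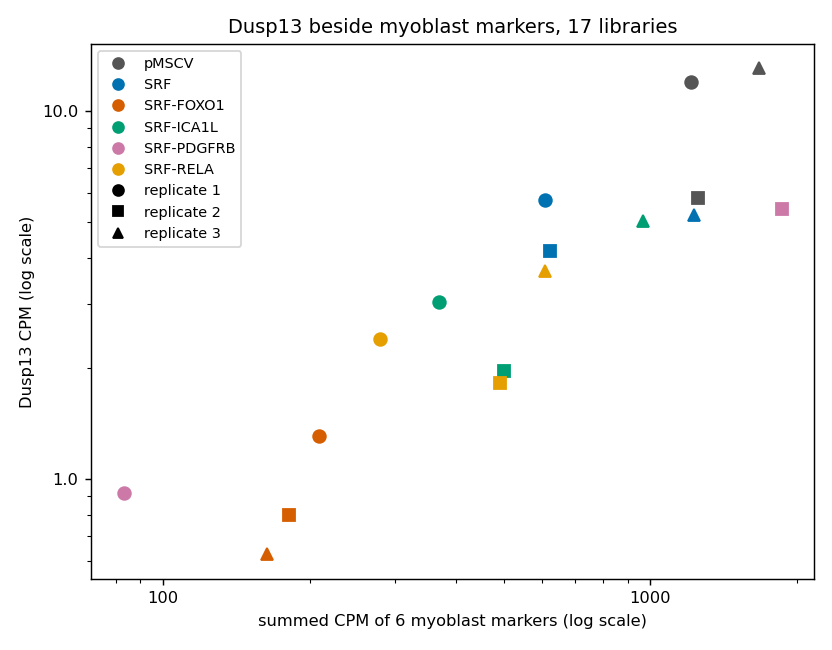
Dusp13 CPM (y axis) against the summed CPM of 6 myoblast markers (x axis) in 17 libraries, both on log scales; colour gives the line and symbol the replicate number. The 3 SRF-FOXO1 libraries and SRF-PDGFRB replicate 1 lie lowest on both axes, and the pMSCV libraries, SRF replicate 3 and SRF-PDGFRB replicate 2 lie at 1211 or more on the marker axis.

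Spry2 (ENSMUSG00000022114, chr14:105891947-105896819, minus strand) encodes a membrane-associated inhibitor of receptor signalling to ERK. Its CPM in replicates 1, 2 and 3 was 75.2, 155 and 65.7 in pMSCV and 49.0, 78.4 and 54.4 in SRF. SRF-ICA1L had 41.7, 74.9 and 41.0, and SRF-RELA had 31.1, 73.3 and 38.3. Replicate 2 was the highest library in each of these lines, so the groups overlapped although every same-numbered pair went down. With the block Spry2 was lower in SRF-ICA1L (log2 fold change -0.87, SE 0.14, adjusted p = 0.0131) and in SRF-RELA (-1.04, SE 0.14, adjusted p = 0.00355). Without the block the values were -0.91 (adjusted p = 0.861) and -1.05 (adjusted p = 0.637). Leaving out replicate number 1 from the block fit gave -0.88 (adjusted p = 0.222) and -0.94 (adjusted p = 0.134). The SRF line stood at -0.63 with the block (SE 0.14, adjusted p = 0.137). SRF-FOXO1 had 24.8, 95.6 and 26.8 CPM, with replicates 1 and 3 below every pMSCV library and replicate 2 among them (-1.01, SE 0.52, adjusted p = 0.288). SRF-PDGFRB had 102 and 60.8 CPM (-0.28, SE 0.58, adjusted p = 0.975).

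**Figure D4:**
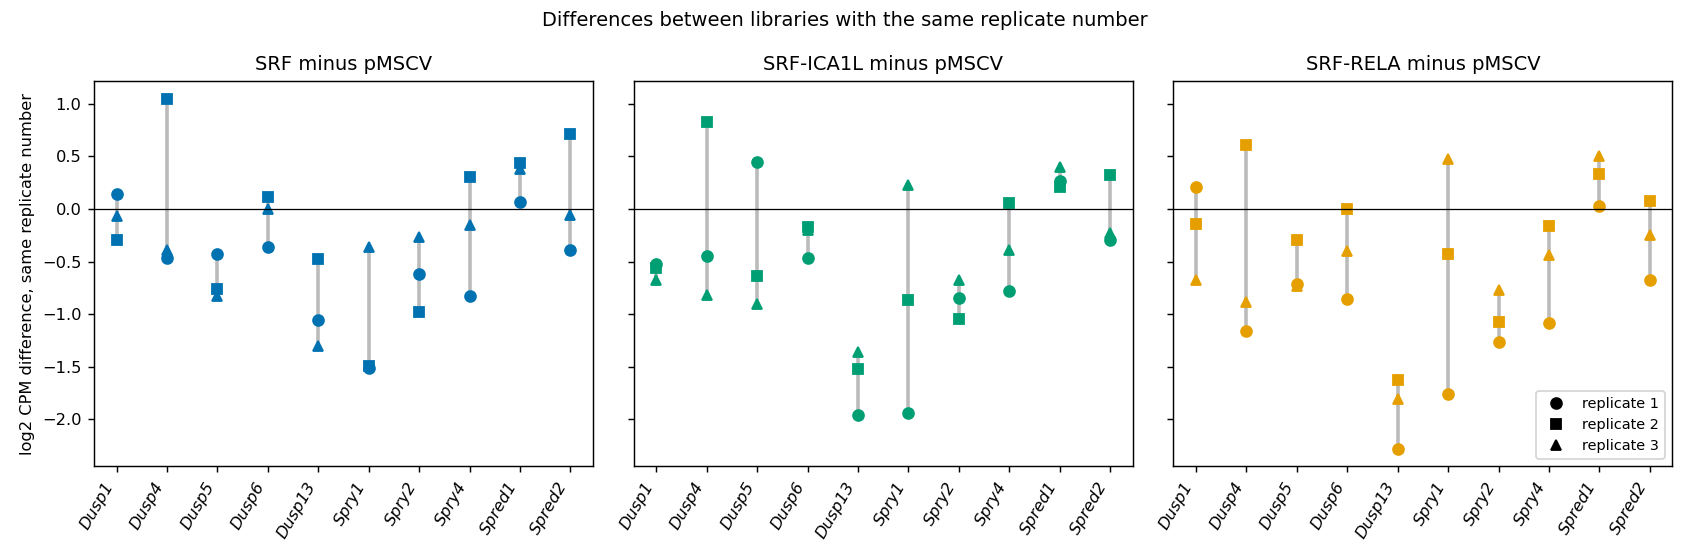
Differences in log2 CPM between libraries of the same replicate number, for SRF, SRF-ICA1L and SRF-RELA minus pMSCV; symbols give the number and the grey bar joins the 3 values. All 3 values of Dusp13 and of Spry2 lie below 0 in each panel, and all 3 of Spred1 lie above 0, while Dusp4 and Spred2 lie on both sides in each.

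The other Sprouty genes gave no call. Spry4 (ENSMUSG00000024427, chr18:38586247-38601415, minus strand), like Spry2 an inhibitor of signalling to RAF, had 22.1, 27.2 and 15.3 CPM in pMSCV and 8.50, 24.6 and 6.15 in SRF-FOXO1 (log2 fold change -0.72, SE 0.58, adjusted p = 0.505). Again replicate 2 stood highest, at 24.3 to 33.6 CPM in the 4 paired lines against 10.4 to 22.1 in replicates 1 and 11.3 to 15.3 in replicates 3. With the block Spry4 stood at -0.58 in SRF-RELA (SE 0.19, adjusted p = 0.102). Spry1 (ENSMUSG00000037211, chr3:37639947-37644598, plus strand) was weak, at 15.8, 16.2 and 3.55 CPM in pMSCV and 5.50, 5.71 and 2.75 in SRF (log2 fold change -1.24 with the block, SE 0.37, adjusted p = 0.243). SRF-ICA1L ran from 4.04 to 8.84 CPM, and the means were 7.20 ± 4.16 in SRF-RELA (SD, n = 3) and 6.89 ± 4.42 in SRF-PDGFRB (SD, n = 2). SRF-FOXO1 replicate 3, at 17.8 CPM, was the one library above all of pMSCV.

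Dusp5 (ENSMUSG00000034765, chr19:53529109-53542431, plus strand) encodes a nuclear phosphatase specific for ERK. It was tight in pMSCV, at 86.8, 95.3 and 84.9 CPM. SRF had 64.4, 56.1 and 47.9, SRF-PDGFRB 48.7 and 43.7, and SRF-RELA 53.0, 77.9 and 50.9. These 3 lines lay below every pMSCV library, as did SRF-FOXO1 at 19.0, 55.4 and 26.5. SRF-ICA1L, at 118, 61.0 and 45.5, lay on both sides. The log2 fold change was -1.40 in SRF-FOXO1 (SE 0.38, adjusted p = 0.0693 by edgeR and 0.00770 by DESeq2), -0.95 in SRF-PDGFRB (SE 0.42, adjusted p = 0.620), -0.69 in SRF with the block (SE 0.25, adjusted p = 0.290) and -0.56 in SRF-RELA with the block (SE 0.25, adjusted p = 0.224). Without SRF-FOXO1 replicate 2, its highest library, the value in that line was -1.97 (adjusted p = 0.0285), the one call among 6 fits that each left out 1 library (-1.97 to -1.12, adjusted p up to 0.237).

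Dusp6 (ENSMUSG00000019960, chr10:99263231-99267489, plus strand), the cytoplasmic phosphatase specific for ERK and among the genes most used to read ERK activity, had 160.1, 107 and 91.5 CPM in pMSCV. SRF-FOXO1 had 38.7, 122 and 39.0 (log2 fold change -0.85, SE 0.38, adjusted p = 0.227). Replicates 1 and 3 of that line were below every other library of the series and replicate 2 was among the higher ones; without replicate 2 the value was -1.62 (adjusted p = 0.0250). With each of the 6 libraries dropped in turn it ran from -1.62 to -0.57, with adjusted p up to 0.527, and it was called in that 1 fit alone. In SRF, SRF-ICA1L and SRF-RELA the blocked values were -0.09, -0.29 and -0.41 (SE 0.14 in each), with adjusted p of 0.770, 0.300 and 0.114.

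Dusp4 (ENSMUSG00000031530, chr8:34807297-34819894, plus strand), a nuclear phosphatase of MAP kinases, had 312, 121 and 235 CPM in pMSCV. Its values in SRF-FOXO1 were 110.5, 237 and 53.8, again with replicate 2 highest (log2 fold change -0.74, SE 0.46, adjusted p = 0.382). SRF-RELA had 139, 185 and 127, which gave -0.55 with the block (SE 0.30, adjusted p = 0.313). The SRF, SRF-ICA1L and SRF-PDGFRB libraries, at 133 to 308, all lay within the pMSCV range. In the comparison of SRF-RELA with pMSCV the low control was replicate 2. Without replicate number 2 the block fit gave -1.02 for Dusp4 and -0.64 for Dusp6 (edgeR adjusted p = 0.00844 and 0.0244). That fit called 1015 of all genes. Neither Dusp4 nor Dusp6 was called in the full block fit, or without number 1 or 3.

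Dusp1 (ENSMUSG00000024190, chr17:26505590-26562128, minus strand) encodes a nuclear phosphatase of p38, JNK and ERK and is an immediate-early gene. It had 278, 240.5 and 67.9 CPM in pMSCV, 308, 196 and 64.7 in SRF, 193.5, 163 and 42.6 in SRF-ICA1L, and 322, 217 and 42.4 in SRF-RELA. Replicate 3 was the lowest library in each of these lines. SRF-FOXO1 had 90.0, 320.2 and 40.7, and SRF-PDGFRB had 280.5 and 49.6. The ranges of all 6 lines overlapped, with log2 fold changes against pMSCV of -0.56 to -0.01 in the fit over 17 libraries (SE 0.92 to 1.04). With the block the largest was -0.59 in SRF-ICA1L (SE 0.16, adjusted p = 0.0838), where the 3 pairs gave -0.52, -0.56 and -0.67. Ergic1 and Gm8225 overlap Dusp1 on the opposite strand, and without the strand setting their reads cannot be told apart from those of Dusp1. Mean CPM by line was 222 to 283 for Ergic1 and at most 0.613 for Gm8225. AC122252.4 and AC122252.1 overlap Dusp1 on the same strand and are not among the counted genes.

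Spred1 (ENSMUSG00000027351, chr2:117121374-117182279, plus strand), which brings the RAS inhibitor neurofibromin to the membrane, was the one member with positive values in all 5 lines. It had 80.9, 69.8 and 81.6 CPM in pMSCV and 106, 102 and 97.9 in SRF-FOXO1. SRF had 84.5, 94.3 and 106, and the 2 SRF-PDGFRB libraries had 107.5 and 106. SRF-RELA, at 82.5, 87.7 and 116, was also above every pMSCV library, and SRF-ICA1L, at 97.5, 80.5 and 108, overlapped them. The log2 fold changes were 0.29 to 0.46 (SE 0.15 to 0.17), and the lowest adjusted p was 0.165, in SRF-FOXO1. Spred2 (ENSMUSG00000045671, chr11:19924375-20024026, plus strand), its paralog, had 116, 61.5 and 110.2 CPM in pMSCV and 67.9, 88.4 and 67.7 in SRF-FOXO1 (log2 fold change -0.36, SE 0.22, adjusted p = 0.363). The other lines, at 64.7 to 106 CPM, lay within the pMSCV range.

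Comparisons with SRF gave no call in the fit over 17 libraries for any of the 10 genes. The share of all genes called was 0.0531% in SRF-PDGFRB, 0.00664% in SRF-RELA and 0% in SRF-ICA1L, and 1 member in SRF-FOXO1 had an unadjusted p under 0.05, where 19.2% of all genes did. In SRF-PDGFRB, SRF-RELA and SRF-ICA1L 0 members did, against 5.03%, 3.21% and 1.56% of all genes. DESeq2 called Dusp13 lower in SRF-FOXO1 (adjusted p = 0.00501), with 4.3% of all genes called, and 0 members in SRF-PDGFRB (0.386% of all genes), SRF-RELA (0.0599%) and SRF-ICA1L (0.0133%). With the block in 12 libraries 0 of 10 members were called in SRF-ICA1L against SRF, where 0.0929% of all genes were, and 0 of 10 in SRF-RELA against SRF, where 0.657% were. At an unadjusted p under 0.05 there were 2 members (9.08% of all genes) and 3 members (17.02%). The median log2 fold change of the members against SRF was -0.50 in SRF-FOXO1, -0.34 in SRF-RELA, -0.18 in SRF-ICA1L and -0.12 in SRF-PDGFRB. Between the fusions 0 of 10 members were called in each of 6 comparisons. There 0.0266% of all genes were called in SRF-FOXO1 against SRF-PDGFRB, 0.0332% in SRF-ICA1L against SRF-PDGFRB, 0.00664% in SRF-PDGFRB against SRF-RELA and 0% in the other 3. At an unadjusted p under 0.05 there were 2 members in SRF-FOXO1 against SRF-ICA1L (5.94% of all genes), 1 against SRF-PDGFRB (3.87%), 2 against SRF-RELA (2.51%) and 0 in the other 3 (0.159% to 2.70%). DESeq2 called 0 members in all 6, with 0.2% of all genes called in SRF-PDGFRB against SRF-RELA, 0.18% in SRF-PDGFRB against each of SRF-FOXO1 and SRF-ICA1L, and 0% in the rest. With the block SRF-ICA1L against SRF-RELA also gave 0 of 10 members and 0% of all genes, with 1 member and 1.86% of all genes at an unadjusted p under 0.05.

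How far line and replicate number accounted for the variance differed among the members. In the 12 paired libraries, line took 73.9% of the variance of log2 CPM for Dusp13 and replicate number 21.1%. For Dusp1 the shares were 4.54% and 93.2%, and for Spry4 12.7% and 77.4%. Spry2 lay between, at 43.0% and 52.6%, and Dusp4 was accounted for by neither, at 24.5% and 16.0%. The median over all genes was 19.5% for line and 49.6% for replicate number. Over the 15 libraries of the lines with 3 replicates the shares were 87.0% and 6.89% for Dusp13 and 5.78% and 81.5% for Dusp1. These shares are a description and were not tested.

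**Figure D5:**
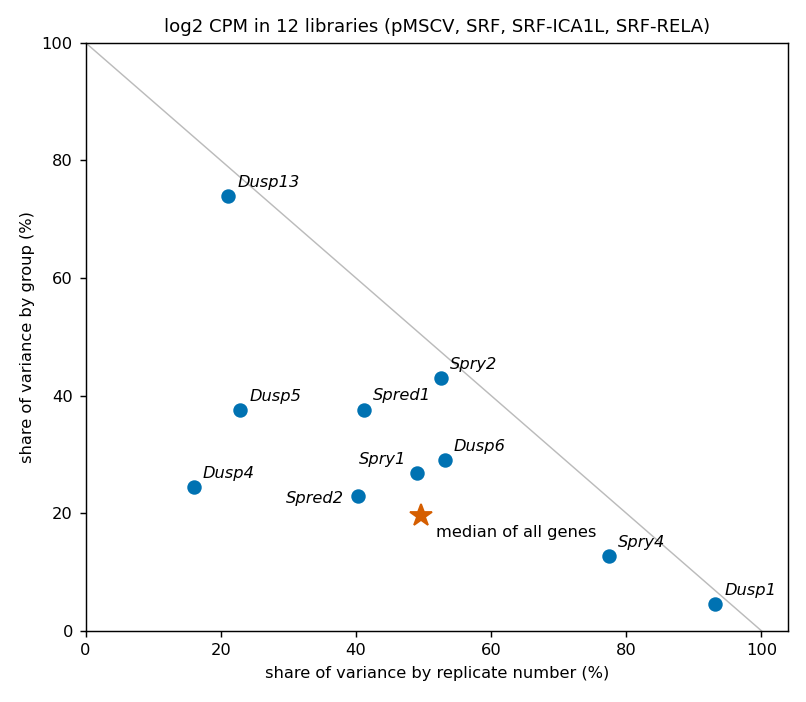
Share of the variance of log2 CPM that replicate number (x axis, %) and line (y axis, %) account for in the 12 paired libraries; points are the 10 genes, the star is the median of all genes, and the grey line marks a sum of 100%. Dusp13 lies at the top left, and Dusp1 and Spry4 lie at the lower right.

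The genes whose log2 CPM ran most like each member over the 17 libraries, among 11940 with a symbol and a mean of at least 1 CPM, differed from member to member. Dusp1 was closest to Ppp1r15a (Pearson's r 0.97), a stress-response phosphatase subunit, and, after one other gene, to Fos (0.93), the classical immediate-early transcription factor. Fos ran at 159, 562 and 1.45 CPM in the pMSCV libraries, 600.0, 569 and 1.73 in SRF-RELA, and 5.14, 361 and 4.64 in SRF-FOXO1. Replicate 3 was low for Fos, as for Dusp1, in each of these lines. Dusp13 was closest to Baiap2l1 (0.97), an actin regulator, and Chrnb1 (0.97), the beta subunit of the muscle acetylcholine receptor, which ran at 91.9 ± 44.9 CPM in pMSCV and 11.9 ± 3.37 in SRF-FOXO1 (SD, n = 3). Dusp5 was closest to Hbegf (0.87), a ligand of the EGF receptor, Dusp6 to Tamalin (0.94), Dusp4 to Vps37b (0.91), Spry2 to Psd (0.91), Spry4 to the transcription factor Sox9 (0.95), Spry1 to Skap2 (0.89), Spred1 to Dennd10 (0.87) and Spred2 to Mfap3l (0.95). The points share libraries and line differences, so these values describe likeness only.

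Other genes of the pathway were read from lists, each set against medians near 0 over all genes. Of 12 other MAP kinase phosphatases and Sprouty-family genes, 10 were in the table, and their median log2 fold change against pMSCV was -1.08 in SRF-FOXO1, -0.60 in both SRF-RELA and SRF-ICA1L, and -0.36 and -0.35 in SRF-PDGFRB and SRF. In SRF-FOXO1 2 of these were called lower and 0 higher, where 0.71% of all genes were called. Without pMSCV replicate 1 the fit called 0 of all genes in this comparison. These calls then end, as do those of Erbb3 and Rps6ka2 below. Dusp10, a phosphatase of p38 and JNK, had 139, 203 and 105 CPM in pMSCV and 38.6, 72.4 and 29.0 in SRF-FOXO1 (-1.68, SE 0.32, adjusted p = 0.0353). Dusp14, an atypical phosphatase, had 36.9, 41.2 and 44.5 CPM in pMSCV and 9.55, 18.8 and 15.3 in SRF-FOXO1 (-1.49, SE 0.24, adjusted p = 0.0336). For both genes every SRF-FOXO1 library was below every pMSCV library. With the block, 3 were lower in SRF-ICA1L (Dusp8 -1.27, Dusp10 -0.91 and Dusp14 -0.84) and 4 in SRF-RELA (Dusp8 -1.18, Dusp10 -1.03, Dusp14 -0.78 and Dusp16 -0.90), with adjusted p from 0.00295 to 0.0194. The share of all genes called there was 2.81% and 6.07%. Without the block none of these was called in those 2 lines. Of a second list of 14 atypical and muscle phosphatases, which does not hold Dusp14, 8 were in the table, and with the block Dusp18 was the one called, lower in SRF-ICA1L (-0.46) and SRF-RELA (-0.41).

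Upstream of the phosphatases, 21 of 23 receptors and adaptors were in the table. Erbb3, a receptor for neuregulins, was lower in SRF-FOXO1 (log2 fold change -3.86, SE 0.76, adjusted p = 0.0383) and, with the block, in SRF-ICA1L (-1.99) and SRF-RELA (-2.20). Fgfr2, a receptor for fibroblast growth factors, was higher with the block in SRF-ICA1L (2.24, SE 0.25, adjusted p = 0.00519) and SRF-RELA (2.49, SE 0.25, adjusted p = 0.00128), and the adaptor Gab1 in SRF-RELA (0.71). In SRF-FOXO1 Fgfr2 stood at 2.97 (SE 0.70, adjusted p = 0.0531). All 26 genes of the RAS-RAF-MEK-ERK list were in the table, and their median was 0.03 in SRF-FOXO1. The ERK-activated kinase gene Rps6ka2 was lower in SRF-FOXO1 (-1.42, SE 0.27, adjusted p = 0.0346) and, with the block, in SRF-ICA1L (-0.72) and SRF-RELA (-0.92). Rras2, a RAS-family GTPase, was lower with the block in SRF-ICA1L (-0.81) and SRF-RELA (-0.95), and in SRF-RELA against SRF (-0.84, adjusted p = 0.0305). In that last comparison the block fit without replicate number 1 called 0 of all genes. Of 11 p38 and JNK kinases 9 were in the table and none was called in either fit; in SRF-FOXO1 they ran from -0.21 for Mapk12 to 1.14 for Map2k6.

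ERK-induced genes other than the members were not called in any line in the fit over 17 libraries. All 22 genes of that list were in the table, with medians against pMSCV of -0.25 in SRF-FOXO1, -0.10 in SRF, -0.02 in both SRF-PDGFRB and SRF-ICA1L, and 0.04 in SRF-RELA. In SRF-FOXO1 Fosb, an AP-1 subunit, was lowest (-1.61, SE 2.44, adjusted p = 0.746), and the ETS factor Etv4 stood at -1.29 (SE 0.52, adjusted p = 0.178). With the block, 1 was higher in SRF-ICA1L and 2 in SRF-RELA, where 2.81% and 6.07% of all genes were called. These were Egr1, an immediate-early transcription factor, at 1.02 (adjusted p = 0.0402) and 1.23 (adjusted p = 0.0115), and Junb, an AP-1 subunit, at 1.06 in SRF-RELA (adjusted p = 0.0164). Egr1 ran at 520, 1818 and 84.7 CPM in pMSCV and at 1894, 3150 and 176 in SRF-RELA, so the same-numbered libraries differed one way while the groups overlapped. With the block, Egr1 and Spry2 in SRF-RELA thus differed from pMSCV in opposite directions. Neither was called in the fit over 17 libraries.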

How the data were processed

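RNA of 17 C2C12 libraries (TruSeq stranded mRNA, per the labels' protocols) had been counted per gene, and the authors deposited raw counts for 15062 genes, each with at least 10 counts in 3 or more libraries. FastQC 0.11.8, Trimmomatic 0.39, HISAT2, featureCounts and Subread 2.0.0 with GRCm38 are listed, per the submitters' processing notes; annotation and strand setting are not given in the sources used here. Library totals were 20901442 to 23543734 counts. Groups came from the labels, and 0 columns lacked a sample.

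Here, CPM was made with TMM library sizes; without TMM a member's CPM moved by at most 4.28%. Log2 CPM used a prior count of 2. edgeR 4.0.16 (R 4.3.3; quasi-likelihood, robust, 1 term per group, all 17 libraries) gave log2 fold changes and p-values, adjusted by Benjamini-Hochberg over 15062 genes in each comparison. SE is the log2 fold change over the root of F. The 95% interval is 1.96 SE on each side, a normal multiplier, so it is narrower than the F test implies. edgeR's filter removed 0 genes. The script was tested on simulated counts. No 2 replicates were alike within counting error (lowest chi-square over its degrees of freedom 29.8, 16 pairs). Same-numbered libraries deviated together in pMSCV, SRF-RELA, SRF-ICA1L and SRF (correlations 0.392 to 0.789, other numbers at most 0.114), so blocked fits are given. SRF-FOXO1 went by number with SRF (0.220, 0.253 and 0.330) but not with pMSCV (0.170, -0.195 and 0.013). Within SRF-ICA1L and SRF-RELA its replicate 2 was most like replicate 1 (0.345 and 0.421), and its replicate 3 most like replicate 3 (0.501 and 0.454). The pairing comes from the data, as the labels give only the numbers.

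All listed members are described; likeness is the 3 highest Pearson correlations, and pathway genes are named where called, lowest or highest. Members, lists and rules were chosen with earlier results of these data known. Positions are GENCODE M21 on GRCm38. Alternatives were DESeq2 1.42.0, other scalings and filters, blocks, fewer groups and leaving out each library.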

Additional observations from a re-analysis of the deposited data

How the results depend on the processing

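Calls among the 10 genes depended on the number and choice of libraries. Genes called over the whole table under the same setting are given beside them. In SRF-FOXO1 against pMSCV 1 member was called (107 genes). The replicate block over 17 libraries (1021 genes) and DESeq2 (1363 genes) each gave 2, Dusp5 and Dusp13. The 2 groups alone gave 0 (29 genes, Dusp13 edgeR adjusted p = 0.0537), and leaving out a library gave 0 to 3 (0 to 355 genes). In SRF-ICA1L against pMSCV 0 members (0 genes) became 2 with the replicate block in 12 libraries (423 genes). That block gave 2 without number 2 (388 genes) or 3 (284 genes), and 0 without number 1 (0 genes). In SRF-RELA against pMSCV 0 members (0 genes) became 2 with that block (914 genes) and 1 with DESeq2 (109 genes). The block gave 4 without number 2 (1015 genes), 2 without number 3 (374 genes) and 0 without number 1 (1 gene). In SRF-FOXO1 against SRF 0 members (1 gene) became 1 with the 2 groups alone (451 genes) and with DESeq2 (597 genes). The replicate block in those 6 libraries also gave 1 (243 genes). The block in 6 libraries and the fits leaving out a number were chosen after seeing the data. No called value changed sign.

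Counts over all genes moved more. For SRF-FOXO1 against pMSCV the 107 genes ran from 0 (without pMSCV replicate 1) to 1363 (DESeq2), for SRF-ICA1L from 0 to 423, for SRF-RELA from 0 to 1015, for SRF-PDGFRB from 0 to 75 (3 as reported) and for SRF from 0 to 5 (1 as reported). Against SRF, SRF-FOXO1 ran from 1 to 597, SRF-ICA1L from 0 to 14, SRF-PDGFRB from 1 to 58 (8 as reported) and SRF-RELA from 0 to 99. Where a group is left with 1 library, that library is assumed to vary like the others. Precision is limited by 2 or 3 libraries a line, with a biological coefficient of variation of 36.5%, and for Dusp13 in SRF-FOXO1 also by depth, at 14 to 30 counts a library.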
